A study of Mus musculus with 8 samples.

Results

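Transcripts of 40 matrix glycoprotein and basement membrane genes were followed in primary mouse myofibroblastic hepatic stellate cells (pMF-HSCs) exposed to an inhibitor of O-GlcNAc transferase. The 40 genes were chosen by name among the 40840 genes of the RNA-seq tables, with earlier results of these data known. All 40 were found. They were divided by role into 18 matricellular and adhesive glycoproteins, 13 components of elastic fibres and microfibrils, and 9 components of basement membranes. With treatment, 8 of 37 genes tested fell (21.6%, against 10.2% of all genes) and 1 rose (8.13% of all genes did). The excess of genes that fell was smaller in some other fits. The 8 were laminin beta-1 (Lamb1), laminin gamma-1 (Lamc1) and nidogen-2 (Nid2) of the basement membrane, and fibulin-2 (Fbln2), fibulin-5 (Fbln5), Emilin1, Mfap2 and fibrillin-1 (Fbn1) of elastic fibres. The gene that rose was Tgfbi, a secreted adhesion protein.

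Hepatic stellate cells lie in the space between hepatocytes and the sinusoidal endothelium and, once activated, secrete much of the scar matrix of the liver. Beside collagens, that matrix holds glycoproteins of different kinds. Laminins, which are trimers of an alpha, a beta and a gamma chain, assemble into sheets that nidogens tie to type IV collagen, and these sheets form the basement membrane. Fibrillins polymerise into microfibrils, on which elastin is laid down with the help of fibulins and emilins. Matricellular proteins such as thrombospondins, tenascin-C, SPARC and osteopontin are secreted into the matrix and modulate how cells attach and signal rather than bearing load.

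Stellate cells came from male C57BL/6J mice aged 15 to 18 weeks, were isolated by sorting on their vitamin A fluorescence and became myofibroblastic over 7 days of culture in medium with 5% serum. Control cultures received vehicle (DMSO) and OGTi cultures received OSMI-1, an OGT inhibitor, at 50 µM, both for 24 h, with 4 biological replicates in each group. All animals were wild-type, and a control and a treated culture with the same replicate number formed a pair. A single compound at a single dose and time was used, so that an effect of the compound and an effect of lower O-GlcNAcylation cannot be told apart here.

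Libraries held 30068876 to 37372420 expected counts, of which the 40 genes took 1.57% to 2.61% in Control and 1.38% to 2.57% in OGTi. OGTi replicate 1 stood apart from the other treated libraries. Its log2 level relative to the rest of its group fell by 0.39 for each doubling of transcript length (11053 genes), against slopes of -0.11 to 0.19 in the other 7 libraries. The 27 expressed matrix genes had a median of -1.30 relative to the rest of the group in that library, against -0.46 to 0.65 in the others. For the called genes, the fold change without replicate 1 is therefore also given. The stellate cell and myofibroblast markers were present in every library, with a summed level of 4006 to 6985 TPM (a level scaled by transcript length and library depth) in Control and 3292 to 7445 TPM in OGTi, although markers such as Lrat, Pdgfrb and Hgf were lower in OGTi.

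To place the genes by abundance, their TPM were compared. SPARC, a collagen-binding matricellular protein, was far the most abundant, with 4279, 4587, 6054 and 6370 TPM in Control replicates 1 to 4 and 5313, 4447, 4812 and 6228 TPM in OGTi replicates 1 to 4. Thrombospondin-1 (Thbs1) came next, with 1039.9, 546.9, 1109.97 and 2144 TPM in Control and 187, 631, 1412 and 2876 TPM in OGTi. For both genes the groups overlapped, and the Thbs1 levels within each group spanned more than the distance between the group means. Tenascin-C (Tnc), an adhesion-modulating glycoprotein of wounds and scars, held the third place with 504, 316, 550.4 and 848 TPM in Control and 104, 371, 514 and 664 TPM in OGTi. These 3 genes held the same first places in Control and in OGTi, and with any replicate number left out.

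Below them came genes whose levels lay too close to be put in order. Over all libraries the means were 372 TPM for Efemp1, 296 for Efemp2, 295 for osteopontin (Spp1), 269 for Nid2 and 258 for nidogen-1 (Nid1), and the order of these 5 changed when a replicate was left out. Fbln5 followed with 199 TPM, then Emilin1 with 112.5, periostin (Postn) with 112.1 and Fbln2 with 84.5 TPM. Lamb1, at 83.9 TPM, was not distinguishable from Fbln2 in this order, and Lamb1 took its place when replicate 2 or 3 was left out. At the other end, thrombospondin-4 (Thbs4) and matrix Gla protein (Mgp) had 0 of 284502912 counts over all libraries, which allows a share of up to 1.05e-06% (3 counts, counting error only). Vitronectin (Vtn), a plasma protein made by hepatocytes, had 7 counts, all in OGTi replicate 4.

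**Figure D1:**
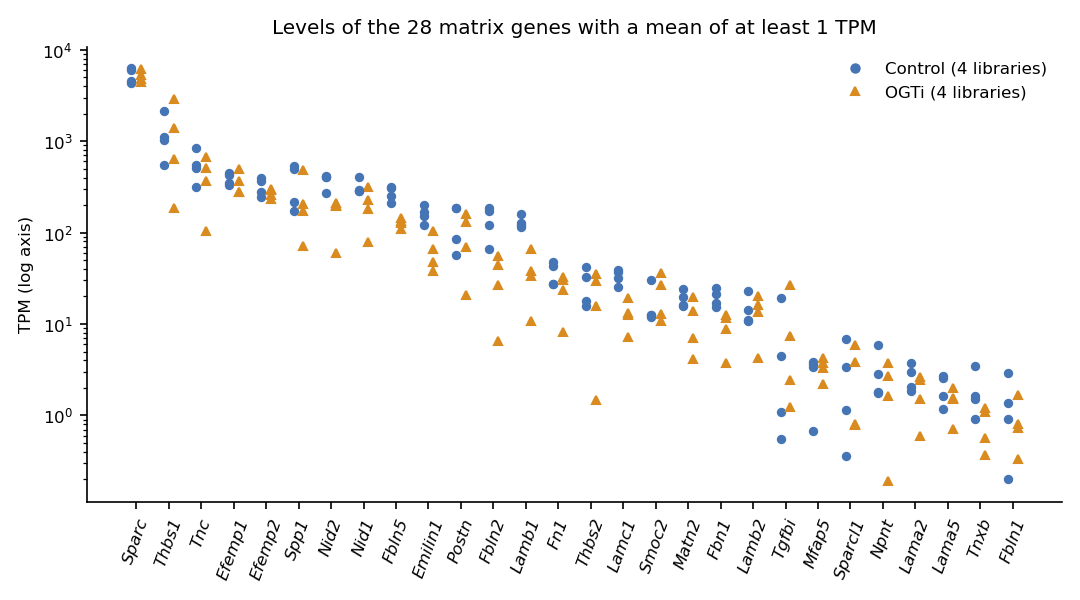
TPM of the 28 genes with a mean of at least 1 TPM (log axis), ordered by their mean over all libraries, with circles for the 4 Control and triangles for the 4 OGTi libraries. Sparc leads at 5261 TPM on average, and the OGTi points of Fbln2, Lamb1, Nid2, Fbln5, Emilin1, Fbn1 and Lamc1 lie below every Control point.

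Differences between the groups were tested on counts over all genes. A total of at least 10 counts was reached by 37 of the 40 genes, the exceptions being Thbs4, Mgp and Vtn. Of the 37, 9 (24.3%) were called at an edgeR adjusted p of at most 0.05, against 18.4% of the 19963 genes tested. The members called lower were 8 of 37 (21.6%), against 10.2% of all genes tested, and the member called higher was 1, against 8.13% of all genes. The median log2 fold change of the 37 was -0.29 (0.01 over all genes), and 23 of 37 lay below 0. This median depended on the processing, being -0.09 without replicate 1, -0.17 with upper-quartile scaling and -0.65 on the log2(TPM + 0.1) scale. The scaled counts of the groups did not overlap, with OGTi below Control, in 8 members, the same 8 that were called lower, against 12% of all genes tested. No member had all OGTi libraries above all Control libraries, as 2293 of the 19963 genes tested did. The fold was below 1 in every pair for 11 of the 37 and above 1 in every pair for 4, against 21.5% and 19.4% of all genes tested.

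The number of members called ranged from 3 to 10 over the alternative fits. With filterByExpr, a filter on low counts, 8 of 33 members were called (7 lower), beside 3704 of 14648 genes, 46.7% of them higher. On the log2(TPM + 1) scale, 9 of 34 were called, all lower, beside 4954 of 16559 genes, 23.7% of them higher. With DESeq2, 10 members were called, Tnxb being added as lower, while 28.2% of the 17253 genes with an adjusted p were called. With the trend of fold change on transcript length removed, 8 members were called, without Fbln5, while 20.3% of all genes were called. Members were longer than other genes tested, with a median effective length of 3410 against 2626 bases, and the 9 called members had a median of 4129 bases. Without replicate 1, 8 members were called lower and 1 higher, with Fbn1 and Tgfbi no longer called and with Tnxb (lower) and Thbs1 (higher) added. In that fit 3124 of 19315 genes were called over the whole table, 44.2% of them higher. Without replicate 3 or without replicate 4, only Fbln2, Emilin1 and Lamb1 were called, while the genes called over the whole table went from 3666 to 1905 and 1956.

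**Figure D2:**
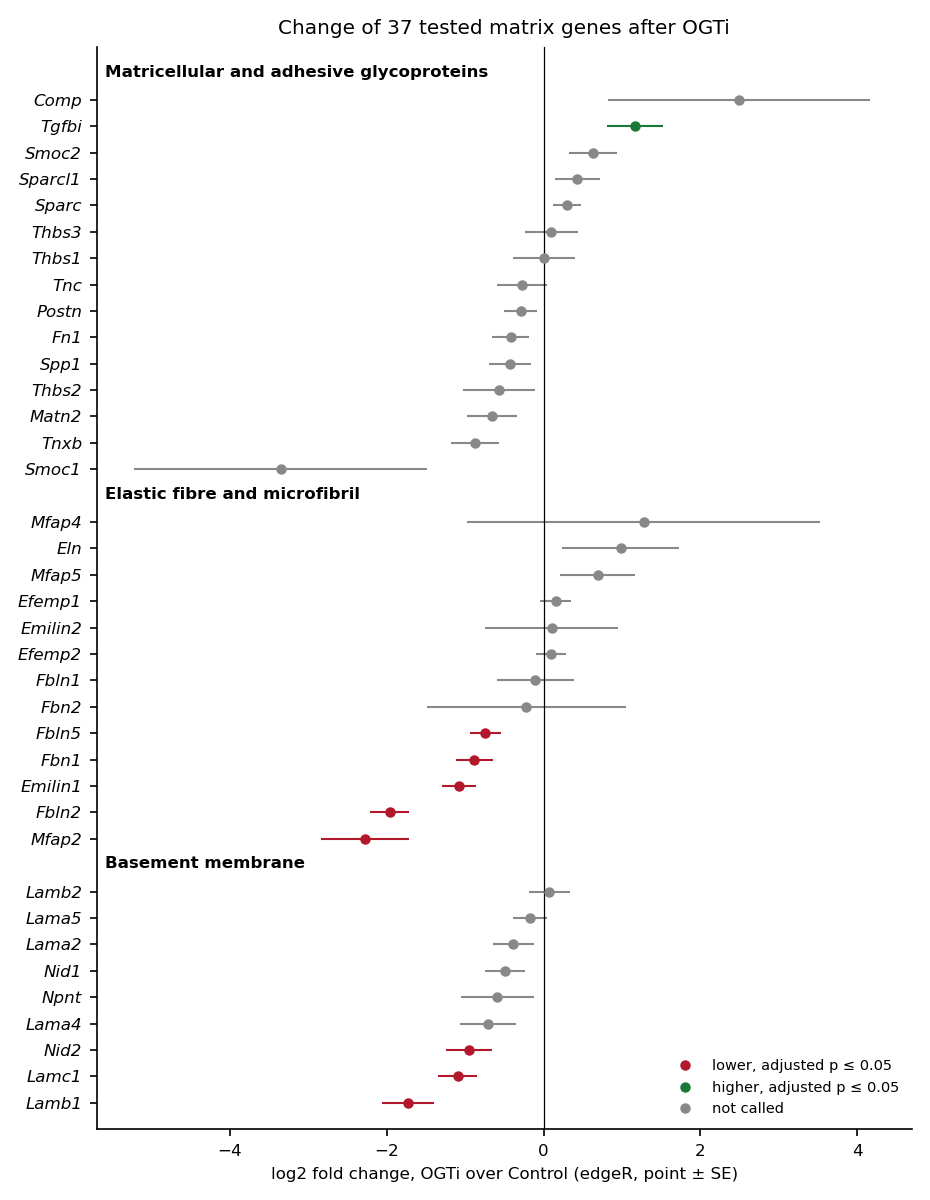
Log2 fold change of OGTi over Control with its standard error for the 37 tested genes, grouped by role, with red for lower, green for higher and grey for not called at an edgeR adjusted p of 0.05. The 8 red points belong to elastic fibres (5) and the basement membrane (3), and Tgfbi, at 1.17, is the green point.

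Basement membrane genes were tested in full (9 of 9), and 3 of them (33.3%, against 10.2% of all genes) fell with OGTi, namely Lamb1, Lamc1 and Nid2. Log2 fold changes were below 0 for 8 of the 9, with a median of -0.59. The summed level of the 9 genes was 713 to 1039 TPM in Control and 162.7 to 616 TPM in OGTi, without overlap. Such genes are also made by endothelial and mesothelial cells. The summed level of 8 endothelial markers was 1.52 to 3.03 TPM in Control and 0.32 to 0.98 TPM in OGTi (2 of 7 tested lower, Tek and Lyve1), and that of 8 mesothelial markers was 88.8 to 140.5 and 47.6 to 80.3 TPM (1 of 6 tested lower, Krt19). Tek made up 1.14 TPM of the endothelial sum in Control on average and Krt19 118 TPM of the mesothelial sum, so that single genes carried much of each sum. The other markers were not called. Log2 fold changes were below 0 for 5 of the 6 mesothelial markers tested, Upk1b (0.44) being the exception, and for 4 of the 7 endothelial ones, with 1.33 for Pecam1. Their part in the result was not tested. In bulk RNA, fewer cells of a type and less RNA per cell cannot be told apart.

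Lamb1, the beta chain of the most widespread laminins (chr12:31315030-31379658, plus strand, GRCm39), had scaled counts (counts brought to a common library size) of 13759, 13180.3, 13972 and 18139 in Control replicates 1 to 4. In OGTi replicates 1 to 4 it had 1773, 8176, 5499.8 and 4637. Every treated library lay below every control library, and OGTi replicate 1 was the lowest. The level went to 30.1% of Control, a log2 fold change of -1.73 ± 0.33 (SE, edgeR adjusted p = 0.00597). Without replicate 1 it was -1.33, and Lamb1 was called under each of the 13 alternative fits at the same threshold.

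Lamc1, the gamma chain shared by most laminins (chr1:153094597-153208774, minus strand), had 4928, 3930, 5473 and 5952 scaled counts in Control and 1609.9, 3165, 2539 and 2349 in OGTi. The groups did not overlap, and the smallest distance was that of pair 2. Its log2 fold change was -1.10 ± 0.25 (SE, edgeR adjusted p = 0.0122), and -0.92 without replicate 1. The call was lost without replicate 3 (adjusted p = 0.0531) or replicate 4 (0.0638). Nid2, a linker between laminin and type IV collagen (chr14:19801298-19861855, plus strand), had 39795, 25929, 37704 and 38343 scaled counts in Control and 8469.5, 20767, 23549.5 and 24628 in OGTi. Its groups did not overlap, although Control replicate 2 lay closer to the treated cultures than to the other controls. The fitted log2 fold change of Nid2 was -0.95 ± 0.29 (SE, edgeR adjusted p = 0.0488), the weakest of the calls. It went to -0.54 without replicate 1, and the call was lost without any one of replicates 2, 3 and 4, with upper-quartile scaling, with filterByExpr and without the replicate block.

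The remaining basement membrane genes were not called. Nid1, the paralogue of Nid2, had 35511, 34641, 33143 and 48011 scaled counts in Control and 13694, 40592, 27154 and 32853 in OGTi, so that its groups overlapped. Its log2 fold change was -0.49 ± 0.25 (SE, edgeR adjusted p = 0.207), and -0.20 without replicate 1. The ratio of Nid1 to Nid2 in TPM was higher in OGTi in 4 of 4 pairs, at 0.872 ± 0.191 (SD, n = 4) in Control and 1.21 ± 0.280 (SD, n = 4) in OGTi. An exact two-sided sign-flip permutation test of this ratio gave p = 0.13, the smallest value that 4 pairs allow. Nephronectin (Npnt), an integrin alpha-8 ligand, had a log2 fold change of -0.59 ± 0.47 (SE, edgeR adjusted p = 0.436).

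Laminin trimers need a chain of each class, so that the chains were compared per length. In Control, Lamb1 led with 130.5 ± 20.8 TPM (SD, n = 4), followed by Lamc1 with 33.5 ± 6.10 and by the other beta chain, Lamb2, with 14.7 ± 5.63 TPM. Alpha chains were scarce, and their sum was 8.21 ± 2.32 TPM in Control and 6.50 ± 2.64 TPM in OGTi (SD, n = 4 each). In OGTi, Lamb1 stood at 37.2 ± 22.8 TPM, Lamc1 at 13.1 ± 4.85 TPM and Lamb2 at 13.5 ± 6.72 TPM (SD, n = 4 each). Lamb2 had a log2 fold change of 0.07 ± 0.26 (SE, edgeR adjusted p = 0.888), and its pairs were split, with 692 against 1211 scaled counts in pair 1 and higher values in OGTi in pairs 2 to 4.

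The share of Lamb1 in all beta chain TPM was 91.6%, 91.0%, 89.8% and 87.4% in Control replicates 1 to 4. In OGTi it was 71.5%, 82.7%, 70.2% and 62.6%, below every control library. The ratio of Lamb1 to Lamb2 went from 9.36 ± 1.81 to 2.86 ± 1.40 and that of Lamb1 to Lamc1 from 3.93 ± 0.461 to 2.62 ± 0.837 (SD, n = 4 each). Each of these measures was lower in 4 of 4 pairs, for which the exact sign-flip permutation test gives p = 0.13, again the smallest value possible. Among alpha chains, log2 fold changes were -0.39 for Lama2 (edgeR adjusted p = 0.346), -0.71 for Lama4 (0.204) and -0.18 for Lama5 (0.632), with none called. Lama1, which was not among the 40 genes, was at 2.91 and 2.88 TPM in Control and OGTi.

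**Figure D3:**
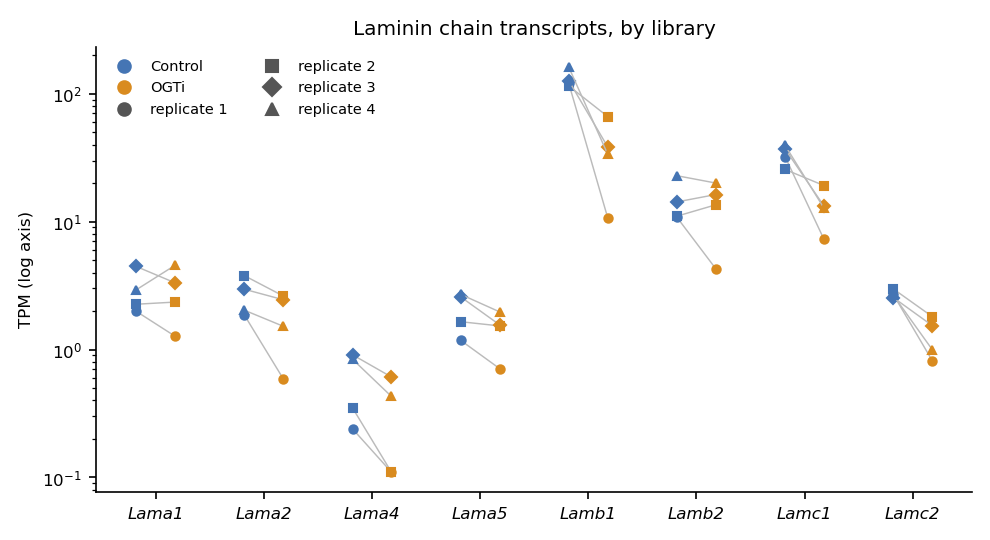
TPM of the laminin chains other than Lama3, Lamb3 and Lamc3 (log axis), with Control in blue, OGTi in orange, a marker shape for each replicate and grey lines joining the pairs. Lamb1 and Lamc1 decline in every pair, whereas Lamb2 declines in replicates 1 and 4 on this scale, and alpha chains lie below 5 TPM in every library.

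Of 24 other basement membrane genes, 23 were tested and 1 was called, peroxidasin (Pxdn), an enzyme that crosslinks type IV collagen, which fell (log2 fold change -1.62 ± 0.35 SE, edgeR adjusted p = 0.00997). This is below the 18.4% of all genes. With DESeq2 4 were called, beside 28.2% of all genes. The median log2 fold change of these 23 genes was -0.50. The type IV collagen chains that form the network beside laminin, Col4a1 and Col4a2, had log2 fold changes of -0.09 ± 0.21 and 0.00 ± 0.17 (SE, edgeR adjusted p = 0.827 and 0.996).

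Elastic fibre and microfibril genes gave 5 calls among 13 tested (38.5%, against 18.4% of all genes), all lower in OGTi, namely Fbln2, Emilin1, Mfap2, Fbn1 and Fbln5. The median log2 fold change of the 13 was -0.11, and 7 of the 13 lay below 0. The summed level was 1158 to 1440.4 TPM in Control and 790.6 to 911.4 TPM in OGTi, without overlap. On this scale Fbln5, Fbln2 and Emilin1 made up most of the difference, with group means of 270.4 and 128.5 TPM, 135.6 and 33.4 TPM, and 160.8 and 64.2 TPM.

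Fbln2, which bridges microfibrils, elastin and basement membrane proteins (chr6:91189437-91249522, plus strand), had the lowest adjusted p of the 40 genes. Its scaled counts were 5742, 14748, 15207 and 10113 in Control replicates 1 to 4 and 825, 5140.3, 4774 and 2752 in OGTi. The replicate 1 cultures were the lowest of both groups, and the groups did not overlap. The log2 fold change was -1.96 ± 0.25 (SE, edgeR adjusted p = 0.000834), that is 25.7% of Control. It was -1.69 without replicate 1, ranged from -2.29 to -1.69 over the 13 alternative fits and was called in each.

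Emilin1, a glycoprotein at the interface of elastin and microfibrils (chr5:31070717-31078622, plus strand), had 8166, 10398, 10927 and 13476 scaled counts in Control and 3740.1, 7587, 4072 and 5451 in OGTi. All treated cultures lay below all controls, and pair 2 was the closest. Its log2 fold change was -1.08 ± 0.22 (SE, edgeR adjusted p = 0.00737), and -1.06 without replicate 1. It was called under all 13 alternative fits. Fbln5, needed for elastin assembly (chr12:101712556-101785429, minus strand), had 17628, 21329.6, 21107 and 14517 scaled counts in Control and 13545, 10746, 9561 and 10618 in OGTi. Here OGTi replicate 1 was the highest treated library, unlike in Fbln2 and Lamb1. The fitted log2 fold change was -0.74 ± 0.20 (SE, edgeR adjusted p = 0.0300). Without replicate 1 it was -0.86, and it was no longer called without replicate 2, 3 or 4, with upper-quartile scaling, or with the length trend removed.

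Fbn1, the main structural protein of microfibrils (chr2:125142514-125349913, minus strand), had 2965, 3243, 4646 and 4035 scaled counts in Control and 1054, 2606, 2786 and 2029.6 in OGTi. The groups did not overlap, but the highest treated and lowest control values lay close together. The log2 fold change was -0.88 ± 0.23 (SE, edgeR adjusted p = 0.0266) and the call was lost without the replicate block (adjusted p = 0.0895) and without replicate 1 (-0.68, adjusted p = 0.0524), 3 or 4. Mfap2, a small microfibril-associated protein (chr4:140737729-140743295, plus strand), was scarce, with 15, 50, 43 and 19 counts in Control and 5, 6, 6 and 3 counts in OGTi. All treated libraries lay below all controls. Its log2 fold change was -2.28 ± 0.56 (SE, edgeR adjusted p = 0.0195), with the widest error of the calls, and the call was lost without replicate 2, 3 or 4. Without replicate 1 the value was -2.55, and on the log2(TPM + 1) scale the difference was -1.05.

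The closest relatives of the called genes in this group were not called. Efemp1, an elastic fibre fibulin, had 16706, 12291, 12525 and 15486 scaled counts in Control and 26340.4, 11033, 12731 and 16507 in OGTi. Efemp2, its paralogue, which is needed for elastin crosslinking, had 8162, 9315, 12623 and 12044 scaled counts in Control and 11159.9, 9327, 12343 and 11675 in OGTi. Both genes overlapped between the groups, and in pair 1 the treated culture was the higher. Their log2 fold changes were 0.15 ± 0.20 and 0.09 ± 0.19 (SE, edgeR adjusted p = 0.651 and 0.785), and -0.01 and -0.02 without replicate 1. Both were below 0 with library totals alone and on the TPM scale, which also lower the median of all genes, to -0.19 and -0.21. Fbln1 had a log2 fold change of -0.11 ± 0.49 (adjusted p = 0.911). Elastin itself (Eln) was barely detected, with 1 to 15 counts in Control and 3 to 24 in OGTi libraries. Its fold was above 1 in all 4 pairs and was not called (log2 fold change 0.98 ± 0.75 SE, adjusted p = 0.411). Fbn2, Mfap4 and Emilin2 also had fewer than 40 counts in every library. Mfap5, the relative of Mfap2, had 18 to 114 counts in Control and 82 to 116 in OGTi (log2 fold change 0.69 ± 0.48 SE, adjusted p = 0.369).

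**Figure D4:**
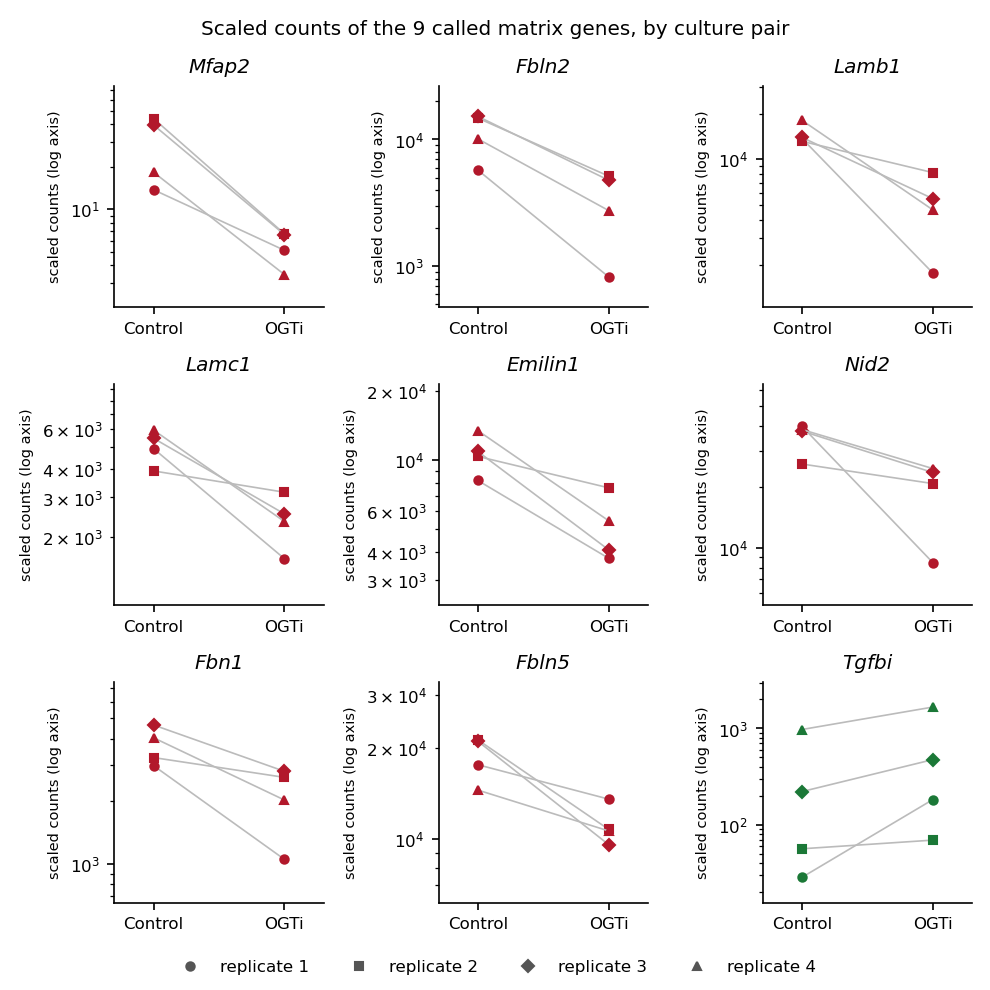
Scaled counts of the 9 called genes (log axis), ordered by log2 fold change, with grey lines joining the Control and OGTi culture of a replicate and a marker shape for each replicate. The 8 red genes decline in each of the 4 pairs without overlap between groups, whereas the 4 Tgfbi pairs rise from start points between 28.4 and 975 scaled counts.

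Other elastic fibre genes, 12 of 13 tested, gave 2 calls, a share near the 18.4% of all genes, the latent TGF-beta binding proteins Ltbp1 (log2 fold change -1.55 ± 0.43 SE, edgeR adjusted p = 0.0318) and Ltbp2 (-1.50 ± 0.29 SE, adjusted p = 0.00668), both lower. These proteins are themselves parts of microfibrils. Neither was called without the replicate block, and the list's median log2 fold change was -0.16.

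Since several microfibril genes fell together, the sequence around their start sites was read from RefSeq promoter windows (250 bases before to 50 after a start, GRCm38.p6), each of which matched GRCm39 at a single place. Windows were found for 25 of the 40 genes (35 windows), and for 7 of the 9 called genes (9 windows). Fn1, Thbs1, Sparcl1, Comp, Matn2, Mgp, Smoc1, Smoc2, Eln, Fbn2, Mfap4, Mfap5, Nid2, Lama4 and Lamc1 had none in the table used. Of the 9 windows of called genes, 4 held a stretch of at least 150 bases upstream of the start and outside annotated exons, and these 4 are shown to let the called genes be compared. They lie at chr4:140737485-140737728 (plus strand), chr12:101785430-101785628 (minus), chr12:101784744-101784992 (minus) and chr13:56757149-56757335 (plus) of GRCm39. Capitals mark a TEAD motif, the only searched motif found in them.
Mfap2: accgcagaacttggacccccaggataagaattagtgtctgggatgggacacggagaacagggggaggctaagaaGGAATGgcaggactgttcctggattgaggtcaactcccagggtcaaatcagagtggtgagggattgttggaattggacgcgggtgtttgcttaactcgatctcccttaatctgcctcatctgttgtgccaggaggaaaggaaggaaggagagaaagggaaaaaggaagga
Fbln5, outer start: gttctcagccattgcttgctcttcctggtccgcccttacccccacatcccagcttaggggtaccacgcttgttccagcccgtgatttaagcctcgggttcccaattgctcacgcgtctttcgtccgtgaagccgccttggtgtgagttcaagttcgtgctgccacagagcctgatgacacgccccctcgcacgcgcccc
Fbln5, inner start: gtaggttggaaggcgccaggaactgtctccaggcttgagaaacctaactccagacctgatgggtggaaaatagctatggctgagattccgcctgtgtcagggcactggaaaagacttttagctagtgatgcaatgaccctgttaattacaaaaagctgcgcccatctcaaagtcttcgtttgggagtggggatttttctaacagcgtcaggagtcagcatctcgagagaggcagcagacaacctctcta
Tgfbi: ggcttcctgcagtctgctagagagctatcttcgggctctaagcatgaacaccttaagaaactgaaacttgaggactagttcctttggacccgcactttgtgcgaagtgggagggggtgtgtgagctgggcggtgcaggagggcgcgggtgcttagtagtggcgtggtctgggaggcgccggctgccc

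The TEAD motif (GGAATG or its complement CATTCC, both strands) was present in 1 of the 9 windows of called genes, that of Mfap2 at position -176 from the start, and in 5 of the 35 windows of all members. It was present in 14.7% of the 32851 windows in the table. The AP-1 motif (TGANTCA, both strands) was in 0 of the 9 and 2 of the 35 windows, those of Tnxb and Efemp1, against 7.81% of all windows. TATAAA, on either strand, was in 0 of the 9 and 6 of the 35, against 13.6% of all windows. The median GC content was 61.7% in the 9 windows, 54.2% in the 26 of other members and 52.7% in all windows. A match describes letters in a window and not a bound site.

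Matricellular and adhesive glycoproteins, the most abundant of the 3 groups, gave the fewest calls. Of 18 genes, 15 were tested, 1 rose (6.67%, against 8.13% of all genes) and 0 fell (10.2% of all genes), with a median log2 fold change of -0.28. At an unadjusted p under 0.05 and with DESeq2, Tnxb was also on the lower side. The summed level, dominated by Sparc and Thbs1, was 5790.2 to 10190 TPM in Control and 5725 to 10275 TPM in OGTi, with nearly the same range.

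Tgfbi, an RGD-containing adhesion protein induced by TGF-beta (chr13:56757336-56787375, plus strand), was the gene that rose. Its scaled counts were 28.4, 56.3, 221 and 975 in Control replicates 1 to 4 and 182, 69.2, 474.5 and 1667.8 in OGTi. Each treated culture exceeded its own control, but the controls spanned a 34.3-fold range, so that the groups overlapped. The fitted log2 fold change was 1.17 ± 0.36 (SE, edgeR adjusted p = 0.0455). The call rested on the pairing, since without the replicate block the log2 fold change was 0.90 with an adjusted p of 0.618. It was also lost without replicate 1, with a log2 fold change of 0.75, without replicate 3 (1.21) or 4 (1.35), with library totals alone and on the TPM scale.

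The abundant members of this group were not called. Sparc had a log2 fold change of 0.30 ± 0.18 (SE, edgeR adjusted p = 0.283) and lay above its control in all 4 pairs, with -0.02 on the log2(TPM + 1) scale, on which the median of all genes is -0.21. Thbs1, an activator of latent TGF-beta, had 121248, 63900.1, 125084 and 246030.4 scaled counts in Control and 31511, 79331, 206095 and 404122 in OGTi. The treated culture was lower in pair 1 and higher in pairs 2 to 4, which gave a log2 fold change of 0.01 ± 0.40 (SE, edgeR adjusted p = 0.994). Without replicate 1, Thbs1 was called higher, with a log2 fold change of 0.58 (edgeR adjusted p = 0.0329).

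Tnc had 66516, 41820.3, 69957 and 109704 scaled counts in Control and 19713, 52778, 84472 and 104939 in OGTi. Its log2 fold change was -0.28 ± 0.32 (SE, edgeR adjusted p = 0.610), and it was 0.18 without replicate 1. As for Thbs1, the treated culture of pair 1 was the lowest library. Postn, a collagen-binding protein of scar tissue, had 3491, 5188, 11113 and 11288 scaled counts in Control and 1863, 4553, 9917 and 11953 in OGTi, with a log2 fold change of -0.29 ± 0.21 (SE, adjusted p = 0.391). Spp1 had 5509, 4349, 13150.2 and 12571 scaled counts in Control and 2622, 4769.5, 15440 and 6285 in OGTi, with a log2 fold change of -0.43 ± 0.27 (SE, adjusted p = 0.308). Without replicate 1 the values were -0.09 for Postn and -0.21 for Spp1. In both, replicates 3 and 4 were higher than replicates 1 and 2 in each group, and the groups overlapped.

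Fibronectin (Fn1), the core adhesive protein of scar matrix, had 4394, 4492, 6696 and 7508 scaled counts in Control and 1929, 4092, 6081 and 6346 in OGTi. It was lower in OGTi in 4 of 4 pairs, with overlapping groups and a log2 fold change of -0.42 ± 0.23 (SE, edgeR adjusted p = 0.242). Tenascin-X (Tnxb), which organises collagen fibrils, was lower in all 4 pairs too, with 230.2 to 865 scaled counts in Control and 117 to 371 in OGTi (log2 fold change -0.88 ± 0.30 SE, edgeR adjusted p = 0.0743). It was called with DESeq2, with library totals alone, without a filter on low counts, on the TPM scale and without replicate 1.

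Of the remaining members none was called. Log2 fold changes were -0.57 for Thbs2 (edgeR adjusted p = 0.439), 0.10 for Thbs3 (0.884), 0.43 for Sparcl1 (0.341), -0.65 for Matn2 (0.187) and 0.63 for Smoc2 (0.188). Smoc1 and Comp, with 20 and 50 counts over all 8 libraries, had fitted values of -3.36 and 2.49 with standard errors of 1.87 and 1.67. Of 25 other matricellular and adhesive genes, 24 were in the files, 21 were tested and 3 were called, all lower, namely Mmrn1 (log2 fold change -2.19), Abi3bp (-1.34) and Ecm2 (-1.30). Their edgeR adjusted p-values were 0.0157, 0.0472 and 0.0272, and the median log2 fold change of the list was 0.33. The called share was no higher than the 18.4% of all genes. None of the 3 was called without the replicate block.

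Receptors that bind these proteins were counted in the same way. Of 25 matrix receptors tested, 5 fell and 0 rose, with a median log2 fold change of -0.15, while 18.4% of all genes were called and 10.2% were called lower. These 5 of 25 were thus near the share of all genes called in either direction and above the share called lower. The integrin chain Itgb6, of a receptor for fibronectin and latent TGF-beta, had a log2 fold change of -3.32 ± 0.47 (SE, edgeR adjusted p = 0.00141). Itga3, a laminin-binding chain, had -1.89 ± 0.25 (SE, adjusted p = 0.00114), and Itga4 and Itga9, which bind fibronectin variants, tenascin-C and osteopontin, had -1.79 ± 0.30 and -1.79 ± 0.22 (SE, adjusted p = 0.00340 and 0.000767). Syndecan-1 (Sdc1), a heparan sulfate receptor, had -1.13 ± 0.26 (SE, adjusted p = 0.0142). The common beta chain Itgb1 and dystroglycan (Dag1), a laminin receptor, were not called, with log2 fold changes of -0.00 ± 0.27 and 0.01 ± 0.33 (SE).

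Markers of other cell types are given for the 40 genes as a whole, since macrophages, cholangiocytes and portal fibroblasts also make some of them. The summed level of 8 macrophage markers was 62.0 to 184.5 TPM in Control and 92.7 to 232 TPM in OGTi, with Cd68 higher and Cd14 lower. That of 8 cholangiocyte markers was 187 to 538.9 and 75.0 to 497 TPM, of which Spp1 made up most, with Sox9 higher. Portal fibroblast markers summed to 53.0 to 61.7 and 44.8 to 65.9 TPM, of which Cd9 made up most. Clec3b was at 0 in every library. Hepatocyte markers summed to 0.06 to 0.59 and 0.52 to 1.67 TPM, with Tat and Hnf4a at 0 and Cyp2e1 higher. The part of these cells in the results was not tested.

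**Figure D5:**
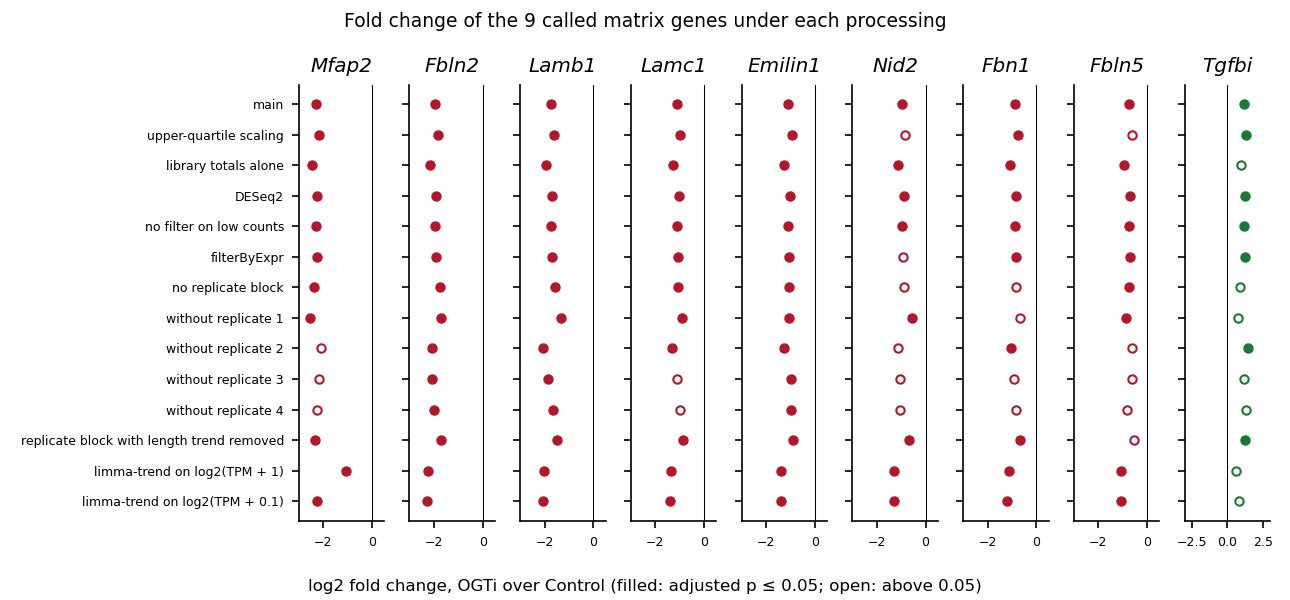
Log2 fold change of the 9 called genes in the fit reported here (main) and under 13 alternative fits, with filled points for an adjusted p of at most 0.05. Fbln2, Lamb1 and Emilin1 are filled in every row, Lamc1 loses 2 rows, and Tgfbi loses 7.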

How the data were processed

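RNA-seq of 4 Control and 4 OGTi cultures was used. The authors made stranded poly(A) libraries and obtained expected counts and TPM per gene with Bowtie2 2.3.5.1 and RSEM 1.3.1 on GRCm39, per the labels. The methods name GENCODE, whereas the deposited tables carry RefSeq transcript identifiers. Deposited effective lengths, in bases, gave transcript lengths. A deposited comparison table of fold changes and p-values was not used.

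Expected counts were rounded and tested with edgeR 4.0.16 (R 4.3.3; quasi-likelihood, TMM, genes with at least 10 counts in total, replicate block), with Benjamini-Hochberg adjustment over all genes. The standard error is the log2 fold change divided by the root of F. The block follows the study's methods, which pair cultures of a replicate. Deviations of same-numbered libraries correlated across genes at 0.187, 0.276, 0.210 and 0.445, and those of differently numbered libraries at -0.511 to 0.284. Scaled counts are counts per TMM-adjusted library size, times the mean size. Counts were also simulated without pair effects or a length trend, with 200 of 19373 genes changed, each changed gene having many counts. In these, 29% of changes of 1 and 93% of changes of 2 on the log2 scale were recovered, and 8.27% of calls were false. The data differ in these settings, so that the shares need not hold for them. TPM was tested with limma 3.58.1 on log2(TPM + 1) and log2(TPM + 0.1). Other alternatives were DESeq2 1.42.0, other scalings and filters, a length correction, and each replicate left out.

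Gene coordinates are from GENCODE vM39. Named with values in every library are the called members and the 12 highest by mean TPM, and for the other members fold changes or ranges are given. The members and lists were chosen with earlier results of these data known. Protein sequences were not used here.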

Additional observations from a re-analysis of the deposited data

Results flagged for a closer look

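In groups of 4 libraries, the highest or lowest scaled count was compared with the others by Dixon's ratio at its 95% limit. Of 34 groups examined, 3 had a library beyond it, where chance alone gives about 1.7. Nid1 stood at 48011 in Control replicate 4, against 33143 to 35511 in the other controls. Nid2 stood at 25929 in Control replicate 2, against 37704 to 39795 in the other controls. Lamb1 stood at 18139 in Control replicate 4, against 13180.3 to 13972. In each case the library lay apart within Control, and no OGTi group was concerned.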

How the results depend on the processing

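Fbln2, Lamb1 and Emilin1 were called in all 13 alternative fits at the same threshold, and with the threshold at 0.01 they were the 3 members called (3 lower, 0 higher), with 1668 genes called in the whole table. Over all genes, the median fold (log2) shifted from 0.01 to 0.13 (upper quartile), -0.19 (library totals), 0.10 (length trend removed), 0.14 (no filter), and -0.21 and -0.34 (TPM, pseudocounts 1 and 0.1). The members' median was -0.29 and went to -0.17, -0.49, -0.19, -0.30, -0.45 and -0.65 in the same order, and to -0.47 to -0.09 over the left-out replicates. Higher calls made up 44.3% of all calls, against 54.2% (upper quartile), 30.1% (library totals), and 23.7% and 24.6% (TPM).

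In the fit with no replicate block, 0 members were called higher and 6 lower (Tgfbi, Fbn1 and Nid2 lost), 2991 genes were called in the whole table, and 0 of the other elastic fibre and 0 of the other matricellular genes were called. With library totals alone and with either TPM fit, 0 members were called higher. Leaving out each replicate in turn gave 1905 to 3124 genes called, 3 to 9 members called, 0 to 1 higher and 3 to 8 lower, 1 to 2 other basement membrane genes, 1 to 2 other elastic fibre genes, 0 to 2 other matricellular genes and 4 to 7 matrix receptors.

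Other basement membrane genes called numbered 5 with library totals alone, 4 with DESeq2, 5 with no filter and 3 in each TPM fit. Other elastic fibre genes numbered 1 with filterByExpr and 1 at 0.01, and other matricellular genes 0 at 0.01. Matrix receptors numbered 8 with library totals alone, 8 with DESeq2, 9 with no filter and 8 with TPM + 1. Calls over all genes also differed between these fits. They were 4167 of 19963 with library totals alone, 4859 with DESeq2 and 4555 of 27756 with no filter. With filterByExpr they were 3704 of 14648, and in the TPM fits 4954 and 4916 of 16559 (pseudocounts 1 and 0.1).

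Uncalled abundant members changed sign. Tnc ranged from -0.47 to 0.18 and Thbs1 from -0.26 to 0.58 over the left-out replicates. Thbs1 was -0.08 without replicate 2, -0.26 without replicate 3 and -0.25 without replicate 4, -0.19 with library totals, and -0.37 and -0.38 in the TPM fits. Sparc was -0.024 in both TPM fits. Efemp1 ranged from -0.012 to 0.28 over the left-out replicates and was -0.042 with library totals and -0.17 in both TPM fits. Efemp2 ranged from -0.023 to 0.15 and was -0.10 with library totals and -0.23 in both TPM fits. The cause was not tested. Of the remaining values for single genes, 176 kept direction and side of the threshold, 27 no longer passed it and 1 (Thbs1 without replicate 1) newly passed it. The scarcest tested members, Mfap4 and Smoc1, had 13 and 20 counts over all libraries and standard errors of 2.25 and 1.87.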

Other observations

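In several members pair 1 differed from the others. In it the log2 ratio of OGTi over Control was -2.87 for Thbs2, -2.69 for Npnt, -1.94 for Thbs1 and -1.75 for Tnc. In pairs 2 to 4 it ranged from -0.10 to 0.17 for Thbs2, from -0.74 to 0.70 for Npnt, from 0.31 to 0.72 for Thbs1 and from -0.06 to 0.34 for Tnc. Tgfbi had 2.68 in pair 1 and 0.30 to 1.10 in the others. These genes were picked after their values had been seen. Effective lengths were 5690 bases for Thbs2, 4368 for Npnt, 5614 for Thbs1, 6335 for Tnc and 2494 for Tgfbi. Shorter members took both signs in pair 1, with 0.84 for Sparc (2407 bases), 0.66 for Efemp1 (1777 bases) and 0.45 for Efemp2 (1600 bases), but -1.43 for Mfap2 (845 bases), -1.07 for Spp1 (1226 bases), -1.04 for Fbln1 (2516 bases) and -0.91 for Postn (2953 bases). In pair 4 the log2 ratio was 2.94 for Mfap5, 2.06 for Fbln1, 1.85 for Smoc2 and 1.52 for Eln, and for Mfap5 and Fbln1 the control library of that pair held the fewest counts of all 8 (18 and 10).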
